A study of Mus musculus with 20 samples.

Results

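The cytosolic ribosomal protein genes encode the protein part of the ribosome that translates nuclear messages. They were taken by symbol, as every gene named Rpl or Rps with a number (with or without an a, x or l ending), plus Rplp0, Rplp1, Rplp2 and Rpsa, leaving out symbols with "-ps". The rule gave 87 of 14633 genes, which by symbol alone were counted as 50 of the large subunit (Rpl) and 37 of the small subunit (Rps). In the GENCODE M21 annotation 82 are protein coding and 5 are pseudogenes (Rps3a2, Rps3a3, Rps4l, Rps12l1 and Rps12l2). All 87 passed the filter on low values and were tested.

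The samples were tumors of HEPA1-6, a mouse hepatoma line, injected under the skin of C57/BL6 mice and left for 4 weeks. Poly-A RNA was sequenced from 5 tumors with anti-CXCL10 antibody and GSK343, 5 with control antibody and GSK343, 5 with anti-CXCL10 antibody alone and 4 with control antibody alone. GSK343 inhibits EZH2, the enzyme that methylates lysine 27 of histone H3, and the antibody binds CXCL10, a chemokine that draws T cells. A replicate 4 with control antibody is labelled too but was not analysed here. Whether each tumor came from its own animal, and how the antibody or inhibitor was dosed, is not in the labels, and the p-values cover the spread between these tumors, which may in part be technical. The series' design text speaks of 3 biological replicates, whereas the labels number 5. The HEPA1-6 cells are 1 line in a host with its own stroma, vessels and immune cells.

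A ribosome holds 1 copy of nearly every ribosomal protein, so their messages are made in step with each other and with ribosomal RNA. Many of these messages begin with a run of C and T bases, the 5' terminal oligopyrimidine tract, through which mTOR signalling and LARP1 adjust their translation and stability. Hepatoma cells, like other dividing cells, spend much of their RNA output on these genes. In bulk tumor RNA, fewer cells of a type and less RNA per cell cannot be told apart.

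RefSeq promoters (build GRCm38.p6) were found for 62 of the 87 genes and gave 73 windows of 250 bases before to 50 after the start. A run of at least 7 C or T bases on the gene's strand within 30 bases of the start was present in 61.6% of these windows, against 33.8% of 32851 RefSeq windows of the same length. CCGGAAG, the core bound by ETS-family factors, was present on either strand in 37.0% against 8.86% of all windows. AAGATGGC, the YY1-type core, was found in 11.0% against 2.75%, and the E-box CACGTG in 11.0% against 7.15%. TATAAA, read on the gene's strand, was in 8.22% against 8.32%. The reverse complements of CCGGAAG and AAGATGGC can each overlap a run of C and T bases, as that of AAGATGGC does in the Rps15a window. The motifs hold no full copy of each other. The genes of the 7 windows printed were chosen after their values were seen. Where a gene had several RefSeq starts, only the first listed was printed. The windows run from 40 bases before to 20 bases after that start, with capitals for runs of at least 7 C or T bases. Rpl10 and Rps15a passed the test in 1 comparison, Rpl4 was the steadiest gene and Rpl41 among the least steady, and Rplp2, Rpl35 and Rps10 show the tract.
Rpl10, chrX:74270776-74270835, plus strand: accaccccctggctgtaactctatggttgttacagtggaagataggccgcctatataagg
Rps15a, chr7:118116128-118116187, minus strand: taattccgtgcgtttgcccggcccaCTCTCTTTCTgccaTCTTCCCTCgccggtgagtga
Rpl4, chr9:64173347-64173406, plus strand: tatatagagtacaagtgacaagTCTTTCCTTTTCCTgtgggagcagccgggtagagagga
Rpl41, chr10:128549149-128549208, minus strand: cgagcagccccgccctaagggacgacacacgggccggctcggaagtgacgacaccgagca
Rplp2, chr7:141447611-141447670, plus strand: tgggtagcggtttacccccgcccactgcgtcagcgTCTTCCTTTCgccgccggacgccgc
Rpl35, chr2:39005112-39005171, minus strand: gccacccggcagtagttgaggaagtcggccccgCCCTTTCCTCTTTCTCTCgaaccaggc
Rps10, chr17:27635225-27635284, minus strand: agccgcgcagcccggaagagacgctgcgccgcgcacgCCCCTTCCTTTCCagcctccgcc
In Rps15a, Rplp2, Rpl35 and Rps10 a run covers the RefSeq start, in Rpl4 it ends before it, and in Rpl10 and Rpl41 the printed window holds no such run.

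The values are FPKM, fragment counts scaled for gene length and library size, so that levels of different genes are compared per length. Ribosomal protein genes took between 14.3% and 20.0% of the summed FPKM of a library, with a median of 17.9% over 19 libraries. The share was 18.5%, 17.8%, 16.6%, 18.9% and 17.7% in anti-CXCL10 + GSK343 tumors (replicates 1 to 5). It was 19.2%, 16.8%, 15.1%, 14.3% and 18.6% in control antibody + GSK343 tumors, and 17.3%, 15.1%, 18.3%, 20.0% and 17.9% in anti-CXCL10 tumors. Control antibody tumors stood at 18.7%, 17.4%, 18.7% and 17.9% (replicates 1, 2, 3 and 5). The 4 groups overlapped, and the spread was widest in the control antibody + GSK343 and anti-CXCL10 groups. The summed level of the large subunit was 1.09 to 1.18 times that of the small subunit in the 19 libraries, so the balance of the subunits varied less than the total.

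**Figure D1:**
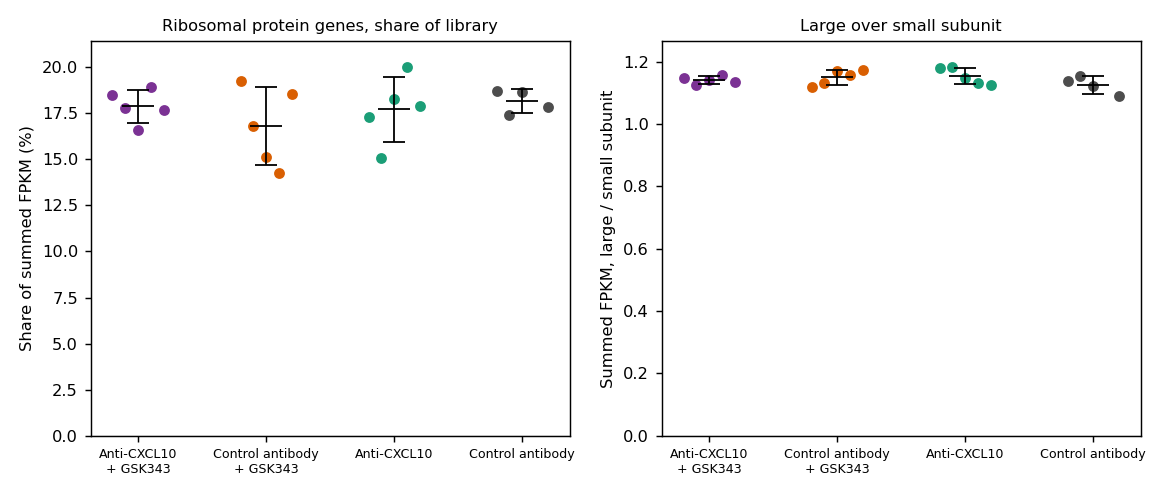
Left, share of summed FPKM (percent) taken by the 87 ribosomal protein genes in each library, by group; right, summed FPKM of large-subunit over small-subunit genes. Points are libraries and bars mean ± SD (n = 5, 5, 5 and 4); the shares overlap between the 4 groups and the subunit ratio stays between 1.09 and 1.18.

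Libraries, more than groups, separated these genes. In replicate 4 of control antibody + GSK343 and in replicate 2 of anti-CXCL10, 84 of the 87 genes lay below their own median over the libraries, while in replicate 4 of anti-CXCL10 only 4 did. Replicate 4 of control antibody + GSK343 had the highest skeletal muscle score of the 19 libraries (7.47, the mean log2(FPKM + 1) of 10 muscle markers), and replicate 2 of anti-CXCL10 the lowest (0.46). The keratinocyte score, over 8 markers, was 1.63 in the first and 4.57 in the second. The part of muscle or skin RNA in these low levels was not tested. Tumor libraries of all 4 groups carried muscle markers, with a summed level of 12.9 to 113 FPKM in anti-CXCL10 + GSK343 libraries, 48.8 to 2256 FPKM in control antibody + GSK343, 5.31 to 281 FPKM in anti-CXCL10 and 18.9 to 94.8 FPKM in control antibody libraries; none of the 10 markers was at 0 throughout. The 10 hepatocyte and hepatoma markers had a summed level of 4603 to 11684 FPKM over the 19 libraries. Such a sum cannot tell HEPA1-6 cells from other liver cells.

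**Figure D2:**
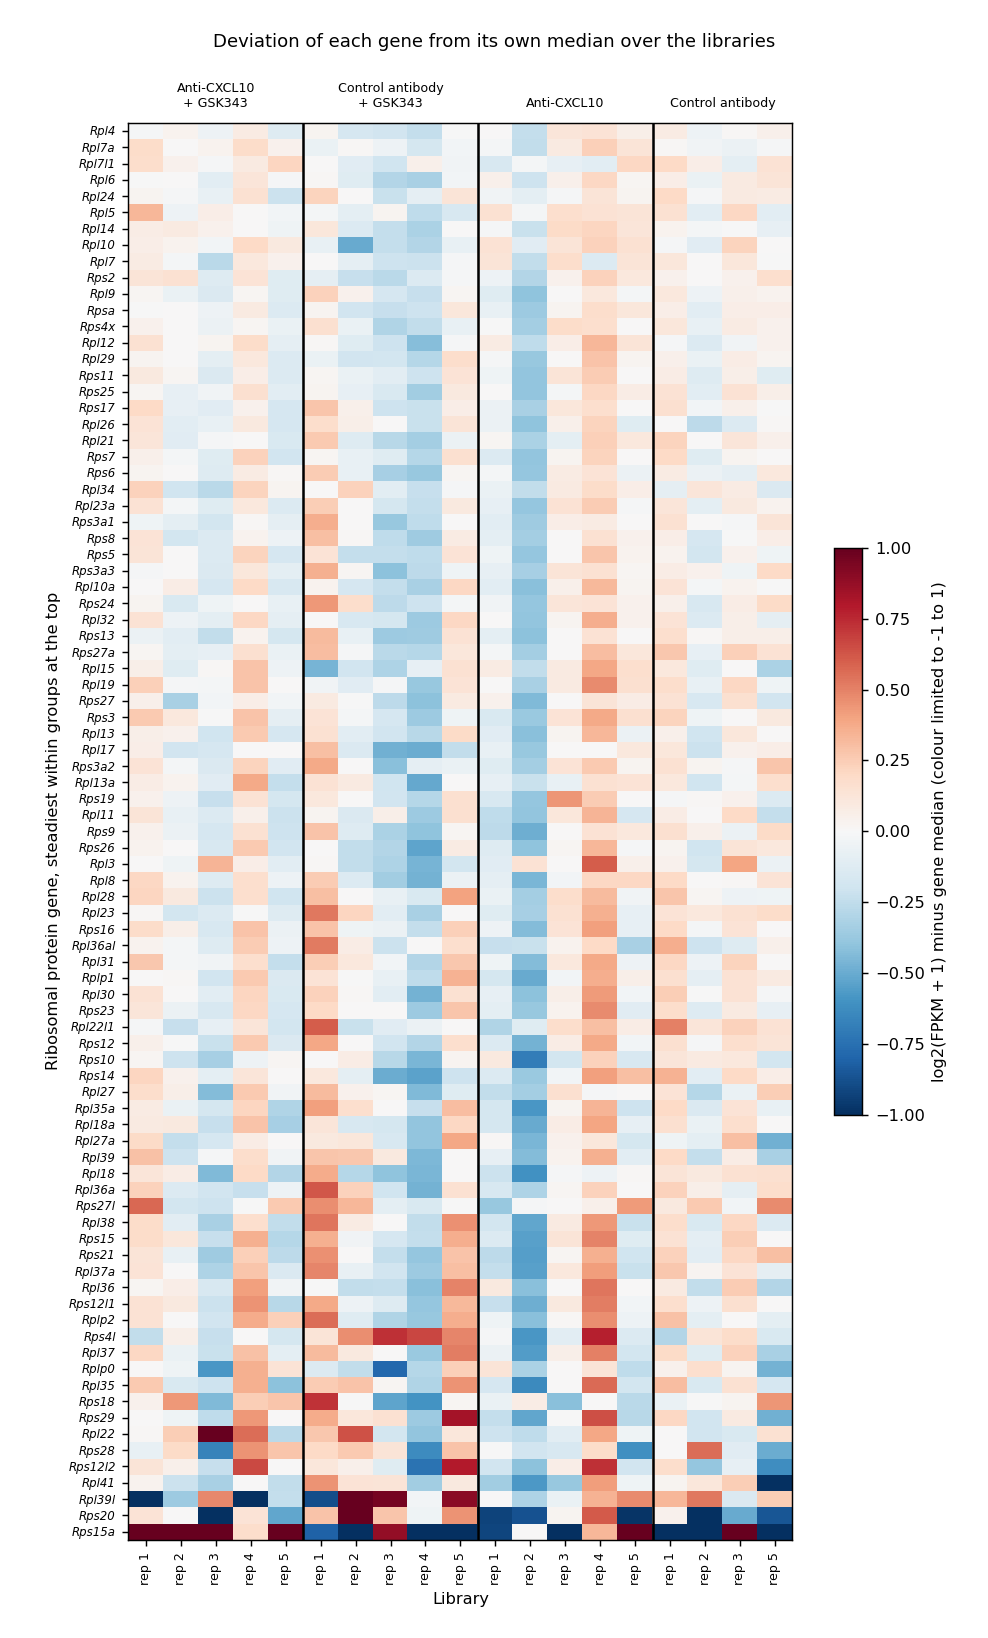
Level of each of the 87 genes in each library as log2(FPKM + 1) minus the gene's median over 19 libraries, with genes ordered from the steadiest within groups (top) to the least steady (bottom) and libraries by group. Whole columns shift together, blue in replicate 4 of control antibody + GSK343 and replicate 2 of anti-CXCL10 and red in replicate 4 of anti-CXCL10, while Rps15a, Rps20 and Rpl39l at the bottom vary on their own.

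Ribosomal protein genes were among the most abundant in these tumors. Of the 100 genes with the highest mean FPKM, 50 were ribosomal protein genes, and the median of their means was 937 FPKM. Means of 40 genes reached 1000 FPKM, those of 83 reached 100 FPKM, and 4 stayed below. Rps14, on the platform of the small subunit and known in people for the loss of a copy in the 5q- syndrome, had the highest mean at 4685 FPKM. Rps26, beside the messenger RNA exit, followed with 4037 FPKM and Rps12, on the head of the small subunit, with 3779 FPKM. In Rps14 the means were 4858 ± 399 FPKM in anti-CXCL10 + GSK343, 3984 ± 752 FPKM in control antibody + GSK343, 4862 ± 1071 FPKM in anti-CXCL10 and 5122 ± 683 FPKM in control antibody tumors (SD, n = 5, 5, 5 and 4). At the other end stood Rpl39l at 1.69 FPKM, Rps4l at 4.37 and Rps12l2 at 32.1.

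The stalk of the large subunit is built from Rplp0, which anchors it, and from Rplp1 and Rplp2, whose acidic tails recruit elongation factors. Rplp0 averaged 2926 ± 648, 2525 ± 629, 2819 ± 401 and 2835 ± 512 FPKM in anti-CXCL10 + GSK343, control antibody + GSK343, anti-CXCL10 and control antibody tumors (SD, n = 5, 5, 5 and 4). In the same order Rplp1 averaged 3042 ± 386, 3143 ± 501, 2987 ± 650 and 3222 ± 244 FPKM. Rplp2 averaged 2213 ± 327, 2134 ± 629, 2056 ± 465 and 2076 ± 277 FPKM. The 3 stalk genes differed between groups by less than the spread within groups, and none passed the test in any comparison. Rpsa, a small-subunit protein first described as a laminin receptor, averaged 955 ± 55.2, 908 ± 102, 959 ± 133 and 984 ± 55.6 FPKM in that order and was steadier than the stalk genes, with a within-group SD of 0.15 on the log2(FPKM + 1) scale against 0.23 to 0.31.

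Several members are close copies of another member, and reads could be shared between them. Rps3a2 and Rps3a3 are processed pseudogenes in the GENCODE M21 annotation and match 99.5% and 98.9% of the bases of the Rps3a1 transcript over the aligned length. Their levels followed Rps3a1 at 28.3% (26.0 to 31.6% by library) and 8.90% (8.31 to 9.41%) of it. Rps12l1, also a pseudogene, is identical to a Rps12 transcript over 399 bases and stood at 3.51% of Rps12 (3.16 to 3.95%). Levels of such near-identical copies are uncertain, since the handling of shared reads is not stated. A further 177 ribosomal protein pseudogene rows with "-ps" symbols, left out by the rule, summed to between 12468 and 19672 FPKM per library.

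More diverged paralogs are protein-coding genes, some of which can replace or accompany their partner in the ribosome. Rpl22l1, the paralog of Rpl22, exceeded its partner in most libraries: as a share of Rpl22 it was 149 ± 46.7% in anti-CXCL10 + GSK343, 191 ± 56.0% in control antibody + GSK343, 199 ± 21.8% in anti-CXCL10 and 235 ± 33.8% in control antibody tumors (SD, n = 5, 5, 5 and 4). Rpl22 itself had 186, 220, 401, 274 and 153 FPKM with anti-CXCL10 + GSK343, against 161, 156, 173, 243 and 180 FPKM with anti-CXCL10. Replicate 3 of the first group was highest, the groups overlapped, and the change of 0.37 ± 0.22 (SE) did not pass (adjusted p = 1.0, limma).
Rps27l, a p53-induced partner of Rps27, stood at 9.19% of Rps27 (6.10 to 13.03%), and Rpl36al, a partner of Rpl36a, at 32.6% of Rpl36a (26.0 to 45.7%). Rpl7l1, a nucleolar relative of Rpl7, was far lower, at 1.57% of Rpl7, yet was one of the steadiest genes. Rpl39l, best known from testis, stood at 0.37% of Rpl39.

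Replicate spread differed between the genes. Measured as the within-group SD of log2(FPKM + 1), it had a median of 0.22 for the 87 genes, against 0.19 for the 846 other genes of at least 100 FPKM and 0.21 for all tested genes. The highest library was under 2 times the lowest for 67 genes. Rpl4 (0.11), Rpl7a (0.11) and Rpl7l1 (0.12) were steadiest; the first pair are core large-subunit proteins. Rps15a (0.92), Rps20 (0.61) and Rpl39l (0.61) were the only 3 over 0.5. Among the 82 genes annotated as protein coding, the 28 with the shortest coding sequence (138 to 396 bases) had a median SD of 0.29, the middle 27 (399 to 564 bases) 0.21 and the longest 27 (576 to 1257 bases) 0.18. This is a description across genes, which are not independent: they share libraries and normalisation, and the part of fragment selection by length was not tested.

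**Figure D3:**
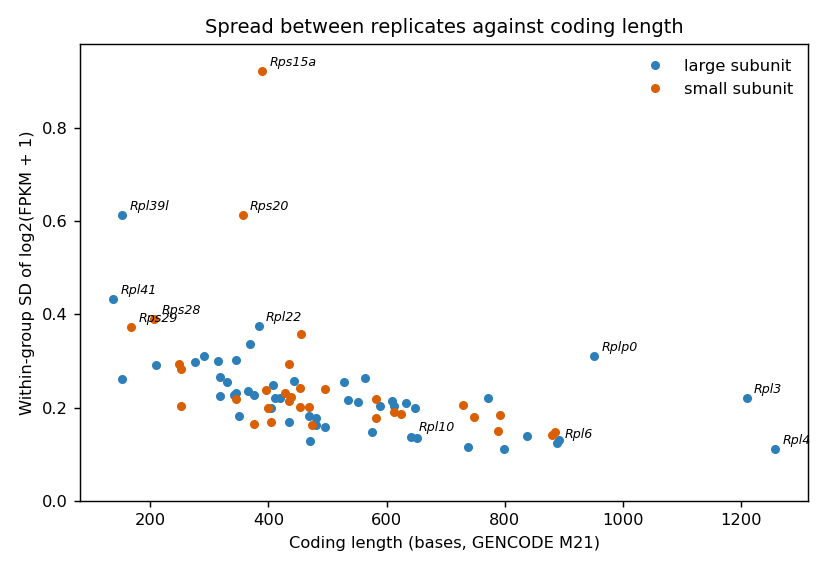
Within-group SD of log2(FPKM + 1) against coding length in bases (GENCODE M21) for the 82 protein-coding genes, blue for the large and orange for the small subunit. Short genes spread more, and Rps15a (0.92) and Rps20 (0.61) lie above genes of similar length.

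GSK343 was first compared within control antibody tumors, the comparison in which T cell and macrophage genes rose. No ribosomal protein gene passed an adjusted p of 0.05 (0 of 87, limma with Benjamini-Hochberg adjustment over 14385 genes), where 5.47% of all genes did (4.36% higher and 1.11% lower). At an unadjusted p under 0.05 there were 5 (2 higher and 3 lower), which is 5.75% of the 87 against 18.9% of all genes tested. The median change of the 87 was -0.09 on the log2(FPKM + 1) scale, against -0.03 over all genes tested, and 68 of 87 lay below 0 (78.2%, against 56.6% of all genes). Without the 3 libraries highest in muscle markers, all of them control antibody + GSK343, the median was 0.05. For 74 of the 87 genes the 95% interval of the change stayed within 1.5-fold in both directions, as it did for 67.0% of all genes tested.

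Rps20, at the head of the small subunit, had 540, 894, 537, 429 and 605 FPKM with control antibody + GSK343, against 455, 190, 313 and 244 FPKM with control antibody. All but 1 of the treated tumors lay above every control antibody tumor. Its change was the largest of the comparison, 1.03 ± 0.38, and did not pass (adjusted p = 0.139, limma). Rps4l, listed at 4.35, 5.75, 7.12, 6.77 and 5.84 FPKM with GSK343 against 2.98, 4.35, 4.54 and 3.38 FPKM without, changed by 0.53 ± 0.20 (adjusted p = 0.141, limma). Rps14 had 5015, 4358, 3299, 3219 and 4028 FPKM with control antibody + GSK343, against 5936, 4332, 5349 and 4872 FPKM with control antibody. The groups overlapped, and the change of -0.37 ± 0.16 did not pass (adjusted p = 0.199, limma). Rps2, a member of the messenger entry region and named here after its values were seen, was the only one whose groups did not overlap, where 7.58% of all genes did not. It had 1121 to 1341 FPKM with GSK343, against 1351 to 1516 FPKM without (change -0.21 ± 0.10, adjusted p = 0.265, limma).

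In the same comparison 8 of 8 T cell and 6 of 7 macrophage markers rose and 3 of 10 hepatocyte markers fell. Over all genes, 787 passed here, 3 with muscle and keratinocyte scores as covariates and 15 without the 3 libraries highest in muscle markers. The marker calls were not counted under those settings. The summed T cell markers were 79.9 to 217 FPKM with control antibody + GSK343 against 37.1 to 65.8 FPKM with control antibody, and no marker of the 8 was at 0 throughout; the macrophage markers were 921 to 1374 against 332 to 759 FPKM. The hepatocyte and hepatoma markers were 4603 to 6754 against 7176 to 9094 FPKM. The part of these shifts in the ribosomal protein levels was not tested.

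With anti-CXCL10 in place, GSK343 passed for no ribosomal protein gene (0 of 87, limma) and for 0% of all genes. At an unadjusted p under 0.05 there was 1 member, Rps15a (1.15% of the 87 against 2.91% of all genes). The median change was 0.02 against 0.01 over all genes (-0.07 without replicate 2 of anti-CXCL10, -0.0042 and -0.02 without replicate 1 or 4 of anti-CXCL10 + GSK343). For 80 of the 87 genes the 95% interval stayed within 1.5-fold, as it did for 79.1% of all genes. Rps15a had 880, 800, 907, 403 and 967 FPKM with anti-CXCL10 + GSK343, against 188, 356, 157, 447 and 811 FPKM with anti-CXCL10. Its change was 1.20 ± 0.54 (adjusted p = 1.0, limma). Rpl39l was listed at 0, 0.85, 2.33, 0 and 1.02 FPKM with both agents, against 1.38, 0.92, 1.28, 2.04 and 2.30 FPKM with the antibody alone. Its levels are near the limit of the table, the groups overlapped, and the change was -0.61 ± 0.36 (adjusted p = 1.0, limma).

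Anti-CXCL10 against control antibody, both without GSK343, left the ribosomal protein genes uncalled as well. No member passed (0 of 87, limma), where 0.0139% of all genes did, and none reached an unadjusted p under 0.05, against 6.81% of all genes. The median change was -0.06 against -0.01 over all genes (0.02 without replicate 2 of anti-CXCL10), and 64 of 87 lay below 0 (73.6% against 53.1%). Rpl18, a large-subunit protein, had 673, 514, 777, 757 and 789 FPKM with anti-CXCL10, against 857, 838, 872 and 877 FPKM with control antibody. It was the 1 member whose groups did not overlap, where 2.53% of all genes did not, and its change was -0.31 ± 0.17 (adjusted p = 0.752, limma). Rps21, another small-subunit protein, changed by -0.28 ± 0.19 and Rps15a by 0.35 ± 0.58 (adjusted p = 0.769 and 0.917, limma). S numbers in the labels restart between control antibody and anti-CXCL10 tumors, so whatever that numbering marks and the antibody cannot be told apart in this and the next comparison; the labels name no run or batch.

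Anti-CXCL10 against control antibody under GSK343 was the comparison in which 3 members passed: Rpl10 and Rps15a rose and Rps4l fell. That is 3 of 87, where 10.1% of all genes passed (3.48% higher and 6.64% lower). At an unadjusted p under 0.05 there were 6 members, 6.90% against 25.7% of all genes. The 95% interval stayed within 1.5-fold for 74 of the 87 genes, as it did for 66.1% of all genes. The median change was 0.04 against 0.03 over all genes. That median turned to -0.11 without the 3 libraries highest in muscle markers, -0.06 with muscle and keratinocyte scores as covariates, -0.03 without replicate 4 of control antibody + GSK343 and -0.0074 without replicate 4 of anti-CXCL10 + GSK343. The other 84 did not pass.

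Rpl10, which lies near the peptidyl transferase centre and joins the large subunit late in its assembly, had 620, 607, 579, 678 and 632 FPKM with anti-CXCL10 + GSK343, against 561, 416, 501, 482 and 562 FPKM with control antibody + GSK343. Every tumor of the first group lay above every tumor of the second, by a narrow margin, where 8.77% of all genes did not overlap. The change was 0.31 ± 0.09 (adjusted p = 0.0392, limma). Pseudogene rows left out by the rule include Rpl10-ps1, Rpl10-ps2, Rpl10-ps3 and Rpl10-ps6, with means of 298, 54.8, 340 and 303 FPKM. Rpl10 itself had a mean of 592 FPKM over the libraries. Whether reads shared with these rows bear on its level was not tested. The gene lies at chrX:74270812-74273135 on the plus strand in GRCm38 and hosts a snoRNA listed as Snora70. Its level was not separate in the other groups, with 652, 547, 645, 695 and 656 FPKM in anti-CXCL10 tumors and 585, 546, 690 and 591 FPKM in control antibody tumors.

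Rps15a, a core protein of the small subunit, had 880, 800, 907, 403 and 967 FPKM with anti-CXCL10 + GSK343, against 203, 165, 656, 139 and 155 FPKM with control antibody + GSK343. The groups overlapped through replicate 4 of the first and replicate 3 of the second. The change was 1.80 ± 0.54 (adjusted p = 0.0442, limma). Control antibody tumors had 177, 160, 942 and 165 FPKM, so high levels were also present without either agent. Over all 19 libraries the level was 139 to 203 FPKM in 9 and 356 to 967 FPKM in 10, with none between. The 7 listed Rps15a pseudogene rows summed to 133 to 196 FPKM (median 158) in the 9 low libraries and to 117 to 185 FPKM (median 164) in the 10 high ones. The deposited row spans chr7:118104378-118116186, whose bounds differ from those of Rps15a in M21. Such a difference is not particular to Rps15a: 56 of the 87 members had the same bounds as in M21.

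Rps4l, a transcribed processed pseudogene in M21 and a relative of Rps4x, was listed at 3.11, 4.09, 3.17, 3.88 and 3.33 FPKM with anti-CXCL10 + GSK343, against 4.35, 5.75, 7.12, 6.77 and 5.84 FPKM with control antibody + GSK343. The groups did not overlap, and the change was -0.62 ± 0.19 (adjusted p = 0.0440, limma). It matches 79.7% of the aligned bases of Rps4x and stood at 0.14 ± 0.02% of it with anti-CXCL10 + GSK343 and 0.27 ± 0.08% with control antibody + GSK343 (SD, n = 5 each). The 3 calls were close to the threshold. None was made without the 3 libraries highest in muscle markers, which leave 2 control antibody + GSK343 tumors (adjusted p 0.110, 0.104 and 0.361 for Rpl10, Rps15a and Rps4l, limma), nor with muscle and keratinocyte scores as covariates. The changes were then 0.36 and 0.29 for Rpl10, 2.04 and 1.20 for Rps15a, and -0.42 and -0.28 for Rps4l. None was made either when replicate 2 or 4 of control antibody + GSK343, or replicate 1, 2 or 5 of anti-CXCL10 + GSK343, was left out singly.

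**Figure D4:**
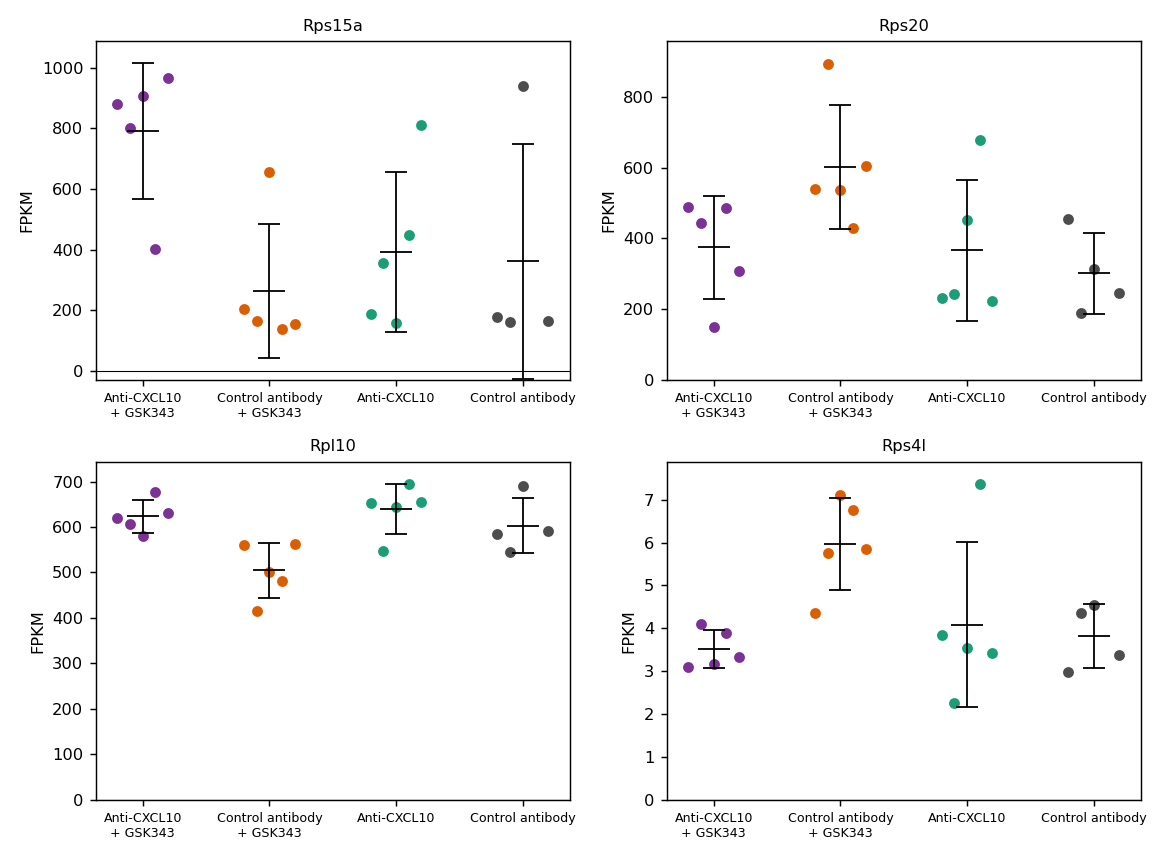
FPKM of Rps15a, Rps20, Rpl10 and Rps4l in each library by group; points are libraries and bars mean ± SD (n = 5, 5, 5 and 4). Rpl10 and Rps4l do not overlap between anti-CXCL10 + GSK343 and control antibody + GSK343, while Rps15a splits into libraries at or under 203 FPKM and at or over 356 FPKM, and Rps20 reaches 894 FPKM in 1 control antibody + GSK343 tumor.

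In this comparison 7 of 8 T cell, 6 of 7 macrophage and 3 of 6 fibroblast markers fell, and 5 of 10 hepatocyte markers rose. Over all genes, 1456 passed here, 9 with muscle and keratinocyte scores as covariates and 497 without the 3 libraries highest in muscle markers. The marker calls were not counted under those settings. The summed T cell markers were 55.9 to 84.8 FPKM with anti-CXCL10 + GSK343 against 79.9 to 217 FPKM with control antibody + GSK343. The summed hepatocyte markers were 6901 to 11355 against 4603 to 6754 FPKM, and the muscle markers are given above. Their part in the calls of Rpl10, Rps15a and Rps4l was not tested.

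Whether the effect of GSK343 differed between anti-CXCL10 and control antibody tumors was tested by the interaction. No member passed (0 of 87, lowest adjusted p = 0.322, limma), where 0.0626% of all genes did, and 2 members had an unadjusted p under 0.05 (2.30% against 12.9% of all genes). The difference was 1.46 ± 0.79 for Rps15a, -0.96 ± 0.52 for Rps20 and -0.77 ± 0.53 for Rpl39l (adjusted p = 0.473, 0.471 and 0.596, limma). The median difference of the 87 was 0.10 against 0.04 over all genes, and 69 of 87 lay above 0 (20.7% below 0, against 42.7% of all genes). That median was not followed under other settings. The 95% interval stayed within 1.5-fold for 54 of the 87 genes, as it did for 49.4% of all genes. Comparisons that share a group, such as the control antibody + GSK343 tumors in both contrasts above, are not independent of each other.

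**Figure D5:**
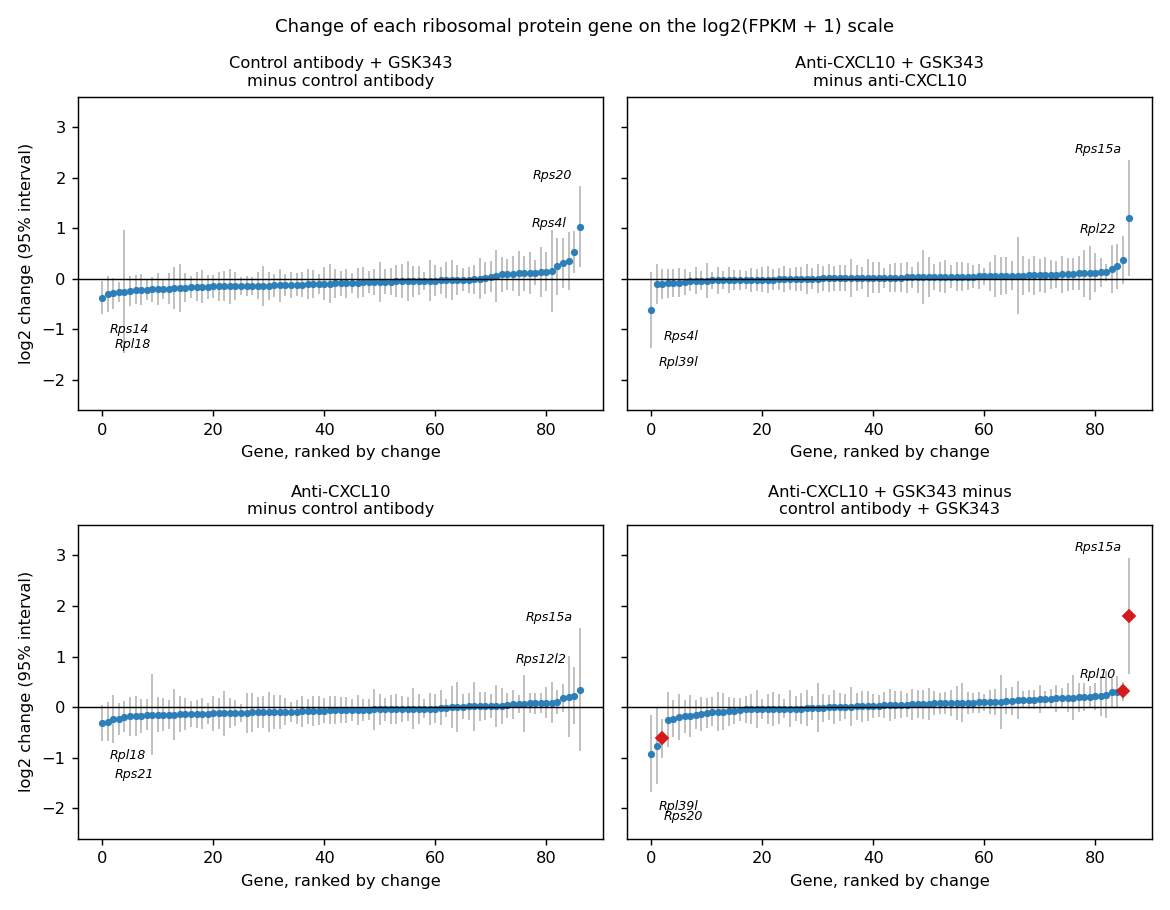
Change of each of the 87 genes on the log2(FPKM + 1) scale, ranked within each of 4 comparisons, with 95% intervals; red diamonds passed an adjusted p of 0.05. Most genes lie near 0 in all panels. The widest range, -0.92 to 1.80, is in the comparison of anti-CXCL10 + GSK343 with control antibody + GSK343. That panel holds the 3 that passed, Rps15a, Rpl10 and Rps4l.

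The wider translation machinery was read from lists. Of 42 translation factors, 3 fell with GSK343 in control antibody tumors, where 1.11% of all genes fell: Eef2, the elongation factor that moves the ribosome (-0.27 ± 0.07), Eif4h, a helper of the unwinding helicase (-0.30 ± 0.07), and Pabpc1, which binds the poly-A tail (-0.40 ± 0.11). Under GSK343, 10 of the 42 rose with anti-CXCL10 against control antibody and none fell, where 3.48% of all genes rose. Eef2 averaged 1461 FPKM with anti-CXCL10 + GSK343, against 1100 FPKM with control antibody + GSK343 (0.41 ± 0.07, adjusted p = 0.00211, limma). Eif3h, a subunit of the initiation factor that loads the small subunit, averaged 629 against 477 FPKM (0.40 ± 0.08, adjusted p = 0.00778, limma). The median of the 42 was 0.14, against 0.04 for the 87 ribosomal protein genes; the difference was not tested. Without the 3 libraries highest in muscle markers 1 factor rose and 1 fell, and with muscle and keratinocyte scores as covariates 0 did, while the median of the 42 was 0.14 and 0.13. Leaving out single libraries, 7 to 12 of the 42 rose there, while for GSK343 in control antibody tumors 0 to 7 fell. The 0 came without replicate 1 of control antibody or replicate 2 or 3 of control antibody + GSK343, and the 7 without replicate 1 of control antibody + GSK343. For GSK343 in control antibody tumors 0 fell without the 3 libraries highest in muscle markers, and 0 with muscle and keratinocyte scores as covariates. The median of the 42 was then -0.11 and -0.10. Fitting only the groups compared gave 0, and median-ratio scaling 1.

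Of 62 ribosome biogenesis genes 0 passed with GSK343 in control antibody tumors (limma; 10 at an unadjusted p under 0.05), with a median of -0.15, and 58 lay below 0. With anti-CXCL10 under GSK343 the median was 0.14 and 2 rose, Gnl2, a nucleolar GTPase of large-subunit assembly, and Rrn3, the initiation factor of RNA polymerase I (0.28 ± 0.08 and 0.28 ± 0.09). These 2 of 62 are near the 3.48% of all genes that rose. Without the 3 libraries highest in muscle markers 1 rose and 1 fell, and with muscle and keratinocyte scores as covariates 0 did (median 0.06). Leaving out single libraries gave 0 to 4, with 0 without replicate 3 of control antibody + GSK343 or replicate 1 or 5 of anti-CXCL10 + GSK343. Among 81 mitochondrial ribosomal protein genes, which build a separate ribosome, Mrpl1 rose and Mrps27 fell with GSK343 in control antibody tumors, and Mrps27 and Mrpl10 rose and Mrps25 fell with anti-CXCL10 under GSK343. Of 8 companion genes, Eef1a1, which delivers transfer RNA, rose with anti-CXCL10 under GSK343 (0.26 ± 0.07). Of 24 regulators, Rptor, the substrate-binding subunit of mTORC1, rose there (0.32 ± 0.09), and of 18 p53 targets Btg2 fell there (-0.83 ± 0.21). Of all genes, 3.48% rose and 6.64% fell with anti-CXCL10 under GSK343, and 4.36% rose and 1.11% fell with GSK343 in control antibody tumors, so counts of 1 or 2 genes are no result about the mitochondrial, companion, regulator and p53 lists. With muscle and keratinocyte scores as covariates 0 mitochondrial genes passed in either comparison. Of the 233 genes of these 6 lists, 0 passed for GSK343 with anti-CXCL10 in place and 0 for anti-CXCL10 without GSK343 (limma; 4 and 19 at an unadjusted p under 0.05).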

How the data were processed

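Per the submitters' processing notes, the reads of poly-A RNA from 20 labelled tumors, 19 of which have values here, were handled with StringTie 1.3.3b, HISAT2 2.1.0, Trimmomatic 0.33, HTSeq 0.6.0 and TopHat2 2.1.0 on GRCm38/mm10. Their roles and the strand setting are given in no source used here. The authors deposited 1 table of 14646 rows, read as FPKM: sums weighted by transcript length varied by 0.79% between libraries, plain sums by 4.06%. Depth is unknown, and no more than 40.0% of 60 low values per library were whole multiples of a step within 0.05.

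Rows of 8 repeated IDs were summed, leaving 14633 genes. Genes with at least 1 FPKM in at least 5 libraries (14385) were fitted as log2(FPKM + 1) with limma 3.58.1 in R 4.3.3, with an intensity trend, robust moderation and 4 group means over all 19 libraries, adjusted by Benjamini-Hochberg over all genes tested. An error after ± is a standard error beside a change and an SD beside a level, and fold changes understate those of low genes. Named members were those past the threshold, or the 3 with the largest change where fewer passed, plus paralogs, partners, stalk genes and extremes of level; other names were chosen after their values were seen. Members and lists were chosen with earlier results of these data known. Sequences and starts are from RefSeq GRCm38.p6, and biotypes, transcripts and coding lengths from GENCODE M21. The script was tested on simulated data.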

Additional observations from a re-analysis of the deposited data

Results flagged for a closer look

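In 104 sets of values, each 1 gene in 1 group, a sample lay apart from the rest of its group by a gap test in 7, where chance gives about 1 in 20. Rps15a stood at 656 FPKM in replicate 3 of control antibody + GSK343, where the others had 139 to 203 FPKM, and at 942 FPKM in replicate 3 of control antibody, where the others had 160 to 177 FPKM. Rps27 was low in replicate 2 of anti-CXCL10 + GSK343 (2297 FPKM, the others 2812 to 3003) and in replicate 2 of anti-CXCL10 (2110 FPKM, the others 2869 to 3137). Rpl22 was high in replicate 4 of anti-CXCL10 (243 FPKM, the others 156 to 180) and Rpl22l1 in replicate 1 of control antibody + GSK343 (534 FPKM, the others 300 to 350). Rpsa was low in replicate 2 of control antibody (900.3 FPKM, the others 1010 to 1013).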

How the results depend on the processing

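The 3 calls for anti-CXCL10 under GSK343 became 7 after quantile normalization (Rpl10, Rpl14, Rpl6, Rps14, Rps15a, Rps2 and Rps3, all higher), 0 with skeletal muscle and keratinocyte scores as covariates and 0 without the 3 libraries highest in muscle markers; leaving out single libraries gave 0 to 3. It was 1 without replicate 3 or 5 of control antibody + GSK343 or replicate 4 of anti-CXCL10 + GSK343. Over all genes the calls were 1456 in the main fit, 1611 after quantile normalization, 9 with the covariates and 497 without those 3 libraries. They were 837 to 1829 with single libraries left out. For GSK343 in control antibody tumors quantile normalization gave 2 (Rpl10 and Rpl6, lower), and leaving out single libraries 0 to 1, the 1 being Rps4l without replicate 4 of anti-CXCL10 (adjusted p = 0.0387, limma). All genes called there were 787 in the main fit, 845 after quantile normalization and 299 to 1389 with single libraries left out. Singly, the call of Rpl10 was lost with median-ratio scaling and when only the groups compared were fitted (adjusted p = 0.0668 and 0.0731, limma), that of Rps4l with a minimum of 5 FPKM (0.0523) and quantile normalization (0.0523), and that of Rps15a with the block (0.0503). Of the 19 fits that each leave out 1 library, Rpl10 lost its call in 7, Rps15a in 9 and Rps4l in 14, and over all 19 their changes were 0.24 to 0.35, 1.64 to 2.20 and -0.71 to -0.56. For Rps15a and Rps4l these include fits without a library outside the groups compared. Rpl39l was called lower without replicate 1 of control antibody + GSK343 or replicate 3 of anti-CXCL10 + GSK343. The cause was not tested. The other 3 comparisons had 0 under every alternative run, but the median change of the 87 genes, which is near 0, changed sign under some settings in 4 comparisons: with GSK343 in control antibody tumors it was 0.05 without the 3 libraries highest in muscle markers, with GSK343 under anti-CXCL10 -0.07 and with anti-CXCL10 alone 0.02 without replicate 2 of anti-CXCL10, and with anti-CXCL10 under GSK343 -0.06 with the covariates and -0.11 without those 3 libraries. No change of a named gene that had passed reversed.

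With the replicate number as a block the counts were 0, 0, 0, 2 and 0, in the order of the report. Replicate numbers are those of the sample titles. In control antibody + GSK343 tumors they differ from the numbers in the file labels, while in the other groups both are equal. Of 27 same-numbered pairs the deviations correlated over 0.1 in 12 (range -0.20 to 0.32). Pairs of replicates 2 and 4 were all above 0, and those of replicates 1, 3 and 5 lay on both sides. Replicate 2 had the highest keratinocyte score in each of the 4 groups (3.69, 5.10, 4.57 and 5.36). Over all genes the block gave 57 interaction calls against 9 in the main fit, and 760 against 787 for GSK343 in control antibody tumors. Whether equal numbers mark a shared batch was not tested. An interaction over only the groups compared was not run, since it needs all 4. Depth is unknown, so no limit of detection can be given.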
